A study of Rattus norvegicus with 6 samples.

Results

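Vegfa, Slc16a3, Pfkl, Cox4i2, Mgarp and Ddit4 are 6 rat genes that low oxygen is known to induce or that act in glycolysis, and they were read from the count files of 6 RNA-seq libraries of primary oligodendrocytes (OLs). They are 6 of the 32552 genes in the files and of the 13163 genes that passed a filter on low counts, and each of the 6 passed it. They were selected on their higher counts on micropillars than on flat hydrogels in these same libraries, so that the difference between the substrates, the lower level in micropillar replicate 3 and the order of the flat libraries are given here as description, without a test. The cells were O4+ cells from the cerebral cortex of wild-type Sprague Dawley rats, Crl:CD (SD) in the study's methods, at postnatal day 7 (the labels call them progenitors), 2 neonates to an isolation by the study's methods, kept for 2 days in a proliferation medium and then in a medium with T3, with forskolin throughout. The flat group is 3 libraries from 50 kPa polyacrylamide hydrogels without pillars. The micropillar group is 3 libraries from 50 kPa hydrogels that carry vertical pillars 5 µm wide and 22 µm high at a spacing of 10 µm, which stand in for axons. Both groups were lysed after 10 days of culture. Values of a group are given in the order of replicates 1, 2 and 3. The labels name no oxygen setting, so low oxygen here describes what the genes are known for and not a treatment. They do not say that the libraries of a group came from separate cultures, and the spread between libraries may therefore be technical.

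When oxygen falls, hypoxia-inducible factors (HIFs) escape degradation and bind short elements near their target genes, with the core letters ACGTG or GCGTG. Their targets shift cells towards glycolysis, move lactate out of the cell, adjust the respiratory chain in mitochondria, slow growth signalling and call for new blood vessels. In cells of the OL lineage, HIF activity is known to be coupled to the timing of maturation and to the growth of vessels in white matter.

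The 250 bases before the start of a gene were searched on both strands for ACGTG and GCGTG, since the 6 genes moved together and share this background. RefSeq windows were at hand for 5 of the 6 genes (6 windows, as Vegfa has 2 starts), all on GRCr8, and none for Cox4i2. Of all 33469 windows of this length, 16.6% held ACGTG, 25.9% held GCGTG and 36.7% held at least 1 of them. The windows of Pfkl, Mgarp and Ddit4 held a match and are shown 5′ to 3′ on the strand of the gene, with the matches in capitals.
Pfkl, chr20:10663715-10663964, plus strand: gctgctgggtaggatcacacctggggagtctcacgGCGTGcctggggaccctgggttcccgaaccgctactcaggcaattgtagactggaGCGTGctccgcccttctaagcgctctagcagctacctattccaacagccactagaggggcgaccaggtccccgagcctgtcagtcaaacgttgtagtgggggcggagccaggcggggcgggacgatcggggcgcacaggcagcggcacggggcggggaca
Mgarp, chr2:137590295-137590544, minus strand: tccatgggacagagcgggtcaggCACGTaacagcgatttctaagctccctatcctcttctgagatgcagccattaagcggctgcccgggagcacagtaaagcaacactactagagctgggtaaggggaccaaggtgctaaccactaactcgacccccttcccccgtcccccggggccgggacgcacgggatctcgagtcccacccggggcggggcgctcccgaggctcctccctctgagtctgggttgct
Ddit4, chr20:28437038-28437287, minus strand: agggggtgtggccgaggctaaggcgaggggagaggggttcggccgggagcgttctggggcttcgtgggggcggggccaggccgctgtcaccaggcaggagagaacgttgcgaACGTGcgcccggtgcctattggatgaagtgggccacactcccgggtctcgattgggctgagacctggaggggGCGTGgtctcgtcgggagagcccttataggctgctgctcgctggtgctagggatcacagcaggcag

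Pfkl held GCGTG at 2 places, Ddit4 held 1 match to each of the motifs, and Mgarp held ACGTG on the opposite strand, where it reads CACGT in the line above. No pair of these matches overlapped. Neither window of Vegfa and not the window of Slc16a3 held the letters, which says only that they are not in these windows. Slc16a3 spans 43841 bases in RefSeq and 9773 in the count files. Its window may therefore not lie before the start of the gene as counted. These matches are a description of letters and not of binding.

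The libraries held between 10645621 and 15624525 counts on genes. Of the 13163 genes that edgeR tested by quasi-likelihood, 475 were called higher on micropillars (adjusted p under 0.05 and log2 fold change over 1), which is 3.61%, and 415 were called lower. Scaling by library totals in place of TMM made this split 331 higher and 579 lower, and took the median log2 fold change over all tested genes from -0.02 to -0.15. Micropillar replicates 1 and 2 were closest to each other, with a mean chi-square per gene of 1.91 where sampling alone gives about 1, against 7.29 to 7.76 for replicate 3 with either of them and 28.5 to 49.0 between flat libraries. They were kept as 2 libraries. Against the micropillar libraries the same value was 30.4 to 43.7 for flat replicate 1 and 75.7 to 96.0 for flat replicates 2 and 3. Of the 8 markers listed for OLs, 6 could be assigned an identifier. Their summed level was 45789 to 78887 CPM (counts relative to the library's scaled total) on flat hydrogels and 87993 to 94784 CPM on micropillars, and Mbp (myelin basic protein) went from 19842 to 31362 CPM to between 43892 and 48706 CPM. All 6 members were among the 475 genes, as the choice of members fixes, and in all 6 every micropillar library lay above every flat library, as it did in 24.3% of the genes tested.

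Vegfa encodes a secreted growth factor for the endothelial cells of blood vessels and is the only ligand in the group. It (ENSRNOG00000019598) lies at chr9:17340341-17355681 (plus strand, 8 exons) on Rnor6.0, the build of the counts. Flat libraries held 33.4, 28.5 and 28.0 CPM of it, and micropillar libraries 143, 148 and 102 CPM. The 3 micropillar values lay far above the flat ones, and micropillar replicate 3 was the lowest of its group. The log2 fold change of micropillar over flat was 2.13 (standard error 0.16).

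Ddit4 encodes a stress-induced inhibitor of mTOR signalling (also called REDD1). The gene (ENSRNOG00000057078) lies at chr20:29509289-29511382 (minus strand, 3 exons). Its level was 50.9, 52.1 and 41.9 CPM without pillars and 173, 171 and 125 CPM with them. It had the smallest difference of the 6 genes, and the groups still did not overlap. The log2 fold change was 1.69 (standard error 0.15).

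Pfkl and Slc16a3 act at the start and the end of glycolysis. Pfkl (ENSRNOG00000001214, chr20:11393877-11415882, plus strand, 22 exons) encodes the liver form of phosphofructokinase, which carries out the committed step. It was read at 22.8, 14.9 and 14.2 CPM in the flat group and at 144, 146 and 96.4 CPM in the micropillar group, a log2 fold change of 2.90 (standard error 0.22). Flat replicate 1 stood above the other flat libraries, and micropillar replicate 3 below the other micropillar libraries. Slc16a3 (ENSRNOG00000036677, chr10:110138586-110148358, plus strand, 6 exons) encodes the lactate exporter MCT4. It had few counts on flat hydrogels, at 1.16, 0.862 and 1.08 CPM, and reached 59.0, 63.8 and 23.3 CPM on pillars. Its summed counts of 40 on flat hydrogels and 2103 on micropillars gave a ratio of 47.2 after scaling (95% interval 34.6 to 66.3, for counting error only). The log2 fold change of 5.56 (standard error 0.43) ranked 1 among all genes tested.

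Cox4i2 and Mgarp encode mitochondrial proteins. Cox4i2 (ENSRNOG00000007827, chr3:148234193-148245416, plus strand, 5 exons) is the alternative form of a cytochrome c oxidase subunit, which replaces the common form in cells at low oxygen. In the flat group 10, 10 and 9 counts fell on it (0.774, 0.663 and 0.807 CPM), in the micropillar group 511, 496 and 212 (34.7, 35.8 and 14.1 CPM). The flat libraries were alike within counting error, and micropillar replicate 3 held fewer counts than the other micropillar libraries. The scaled ratio of the summed counts was 37.7 (95% interval 26.1 to 56.6), and its log2 fold change of 5.23 (standard error 0.42) ranked 3. Mgarp (ENSRNOG00000011923, chr2:140444965-140453107, minus strand, 4 exons), also called HUMMR, takes part in the movement of mitochondria. It was the least abundant of the 6 genes, with 5, 3 and 5 counts in the flat group and 239, 238 and 105 in the micropillar group. Those were 0.387, 0.199 and 0.448 CPM against 16.2, 17.2 and 6.99 CPM. With 13 flat counts in all, the ratio of 40.2 had a wide 95% interval of 23.3 to 76.0, and its log2 fold change of 5.29 (standard error 0.47) ranked 2. None of the 6 genes overlapped another annotated gene on either strand.

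**Figure D1:**
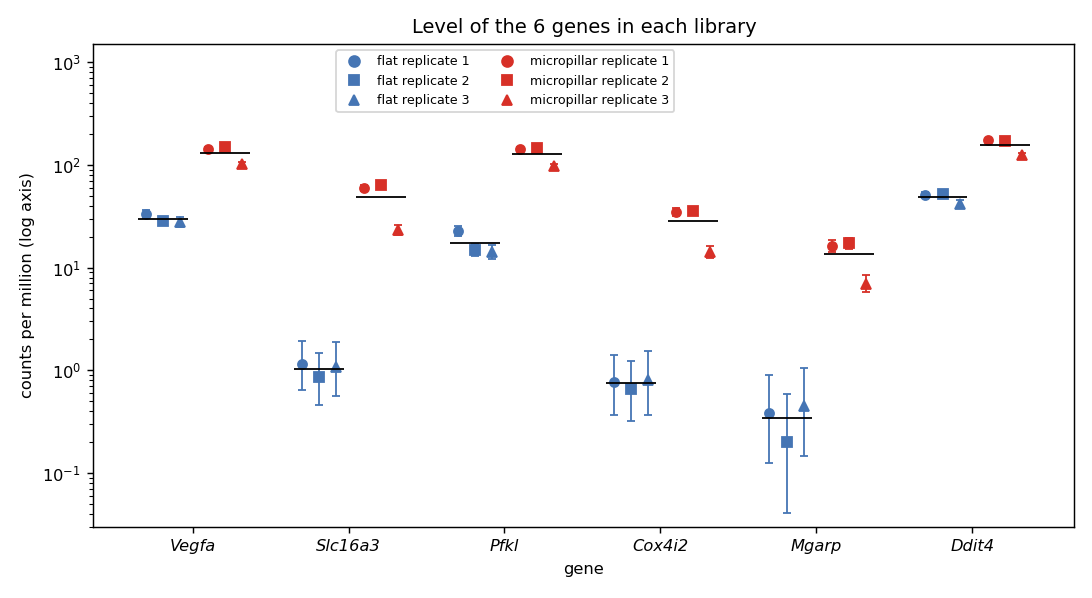
Level of the 6 genes in each library, in CPM on a log axis, with 3 flat (blue) and 3 micropillar (red) libraries per gene. Vertical bars are 95% exact Poisson intervals of the count and black lines are group means; every micropillar library lies above every flat library, and the triangle of micropillar replicate 3 is the lowest of its group for each gene.

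Per kilobase of exon, which allows levels of different genes to be set side by side, the 6 genes kept a similar order on the substrates but lay much closer together on micropillars. On flat hydrogels the mean level per kilobase was 28.1 ± 3.26 CPM for Ddit4, 8.45 ± 0.85 CPM for Vegfa and 6.28 ± 1.75 CPM for Pfkl (SD, n = 3). It was 0.709 ± 0.071 CPM for Cox4i2, 0.482 ± 0.072 CPM for Slc16a3 and 0.286 ± 0.108 CPM for Mgarp. The values of the libraries of Vegfa and Pfkl overlapped, and those of no other neighbours in this order did. Cox4i2, Slc16a3 and Mgarp had 3 to 15 counts in a flat library, so counting error leaves the order of neighbours among them unsettled. On micropillars the levels per kilobase were 91.0 ± 15.9 CPM for Ddit4, 46.8 ± 10.2 CPM for Pfkl and 36.9 ± 7.14 CPM for Vegfa. Cox4i2 followed with 26.7 ± 11.6 CPM, Slc16a3 with 22.7 ± 10.3 CPM and Mgarp with 11.2 ± 4.67 CPM. Here Ddit4 alone stood clear of its neighbour, and the ranges of all others overlapped with the next in the order. Slc16a3, Cox4i2 and Mgarp went from a level per kilobase above that of 5.20%, 8.26% and 2.09% of the genes tested on flat hydrogels to one above 72.0%, 75.5% and 54.9% on micropillars. For Vegfa, Pfkl and Ddit4 the same shares were 48.8%, 41.7% and 77.8% on flat hydrogels and 81.7%, 85.5% and 92.8% on micropillars. The group therefore held 3 genes that flat cultures already expressed and 3 that were close to absent there.

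The authors' deposited rlog values, a log2 scale on which genes of low counts are shrunk towards their mean, gave smaller differences and another order. The difference of group means was 2.20 for Slc16a3, 1.82 for Cox4i2, 1.63 for Pfkl, 1.32 for Mgarp, 1.21 for Vegfa and 0.99 for Ddit4. Mgarp, with the fewest counts, moved furthest between the scales, from 5.29 on the fitted scale to 1.32. All 6 kept their direction, and the groups did not overlap on either scale.

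**Figure D2:**
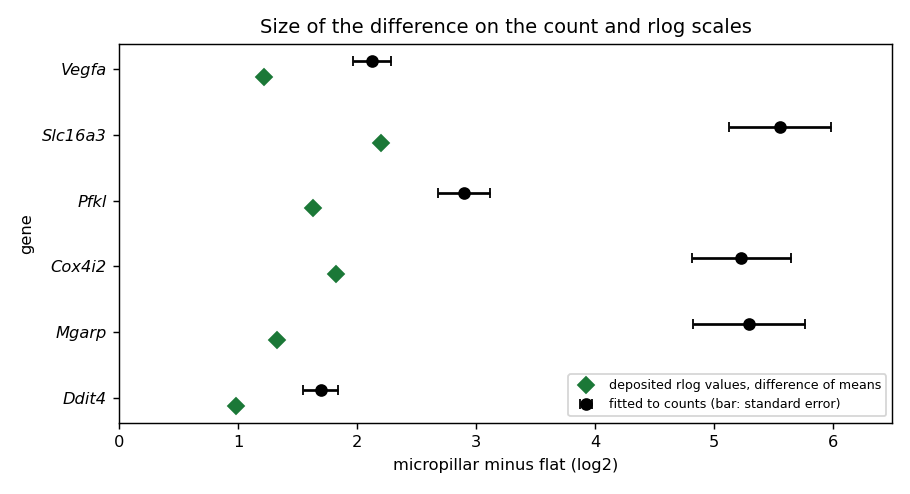
Micropillar minus flat for each gene on the log2 scale, as fitted to the counts (black, with the standard error) and as the difference of the means of the deposited rlog values (green). Slc16a3, Cox4i2 and Mgarp lie between 5.23 and 5.56 on the fitted scale and between 1.32 and 2.20 on the rlog scale.

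Micropillar replicate 3 was the lowest micropillar library for all 6 genes, as it was for 38.3% of the genes tested and 78.5% of those called higher. Replicates 1 and 2 did not differ from each other beyond counting error in any of the 6: the ratio of replicate 2 to replicate 1 ran from 0.988 for Ddit4 to 1.08 for Slc16a3, and its 95% interval held 1 for each gene. On the log2 CPM scale, replicate 3 lay below the mean of the other micropillar libraries by different amounts. The difference was -1.39 for Slc16a3, -1.31 for Cox4i2 and -1.24 for Mgarp. It was -0.59 for Pfkl, -0.52 for Vegfa and -0.46 for Ddit4. The median of this difference was -0.00 over all genes tested (5th to 95th percentile -0.50 to 0.51) and -0.26 over the 475 genes called higher, so that each of the 6 lay below both medians. Of the 475 genes, 3 were at or below the value of Slc16a3, 7 at or below that of Cox4i2 and 10 at or below that of Mgarp, against 79 for Pfkl, 106 for Vegfa and 130 for Ddit4.

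**Figure D3:**
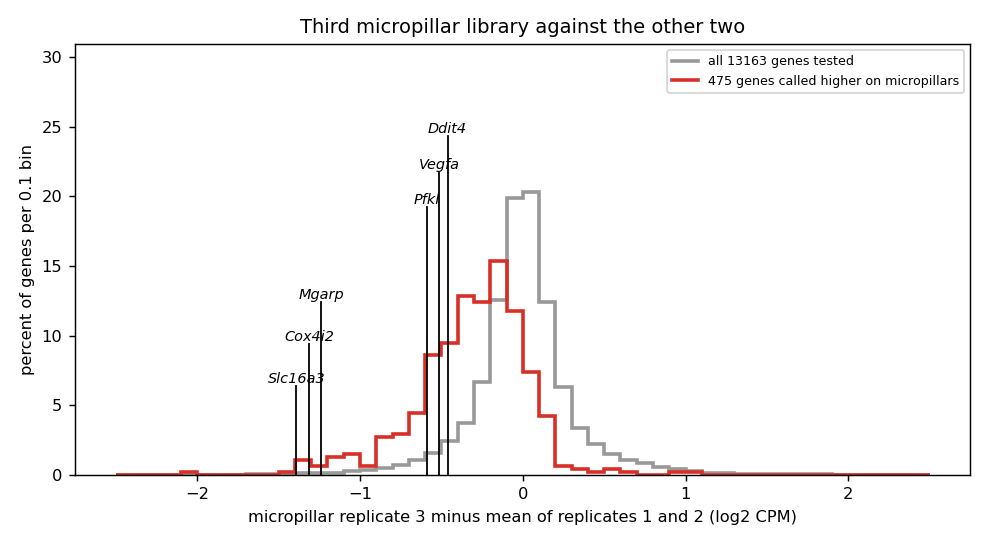
Distribution over genes of micropillar replicate 3 minus the mean of micropillar replicates 1 and 2 in log2 CPM, for all 13163 genes tested (grey) and the 475 called higher (red), as percent of genes per bin of 0.1. The 6 genes are marked by black lines: Pfkl, Vegfa and Ddit4 lie between -0.59 and -0.46, and Slc16a3, Cox4i2 and Mgarp between -1.39 and -1.24.

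The lower level of replicate 3 was also expressed as the share of the rise it held, the difference between replicate 3 and the flat mean as a percent of that between micropillar replicates 1 and 2 and the flat mean, in CPM. The shares fell at 2 values. They were 62.1% ± 2.6 for Vegfa, 61.9% ± 2.3 for Pfkl and 61.9% ± 2.7 for Ddit4 (standard error from counting). They were 36.9% ± 2.3 for Slc16a3, 38.8% ± 3.1 for Cox4i2 and 40.6% ± 4.6 for Mgarp. Within each of these sets the shares differed by less than their counting error, although Vegfa, Pfkl and Ddit4 differed in their fold change. The sets are the same as those by flat level, with the genes close to absent on flat hydrogels holding the smaller share. Those 3 genes also had the largest fold changes. Over the 475 genes called higher, the log2 difference of replicate 3 fell with the log2 fold change in general (Pearson r -0.41, Spearman rho -0.32). Micropillar replicate 3 enters both of these log2 values, and neither of them is the share. Whether the split in share is particular to these genes was not tested. Over the 475 genes called higher the median share was 72.0%, with quartiles at 54.6% and 88.5%, and 86 genes (18.1%) were below 50%. The shares moved by at most a percentage point with other scalings of the libraries.

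**Figure D4:**
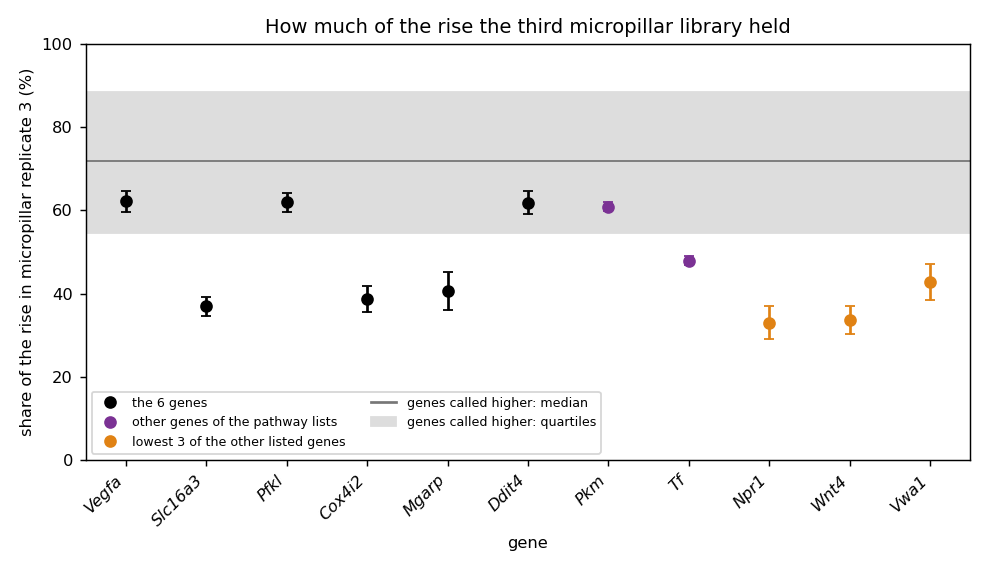
Share of the rise held by micropillar replicate 3, in percent, with the standard error from counting, for the 6 genes (black), the other genes of the pathway lists (purple) and the 3 of the study's other listed genes with the lowest replicate 3 (orange). The grey line and band are the median (72.0%) and quartiles over 475 genes called higher; Vegfa, Pfkl, Ddit4 and Pkm lie near 62% and Slc16a3, Cox4i2 and Mgarp near 40%.

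Ratios of counts between genes within a library need no scaling. They restate the same counts in another form and are not separate evidence for the sets. The ratio of Slc16a3 to Cox4i2 was 1.70, 1.78 and 1.65 in micropillar replicates 1, 2 and 3. That of Slc16a3 to Mgarp was 3.64, 3.71 and 3.33, and that of Cox4i2 to Mgarp was 2.14, 2.08 and 2.02. The 95% intervals of each ratio overlapped across the 3 libraries, so that these 3 genes kept their proportions while their level fell in replicate 3. On flat hydrogels, with 3 to 15 counts a library, Slc16a3 to Cox4i2 was 15 to 10, 13 to 10 and 12 to 9 counts, Slc16a3 to Mgarp ran from 2.40 to 4.33 and Cox4i2 to Mgarp from 1.80 to 3.33, with intervals that held the micropillar values. Vegfa to Pfkl was 0.994, 1.01 and 1.06 on micropillars, again with overlapping intervals, but 1.46, 1.92 and 1.97 on flat hydrogels. Ddit4 to Vegfa was 1.21, 1.16 and 1.23 on micropillars and 1.52, 1.83 and 1.497 on flat hydrogels. Ddit4 to Pfkl was 1.20, 1.17 and 1.30 on micropillars, with overlapping intervals. On flat hydrogels it was 2.23, 3.51 and 2.96, and the intervals of flat replicates 1 and 2 did not overlap. Between the sets the proportions changed with the library, since Vegfa to Slc16a3 was 2.43 and 2.31 in micropillar replicates 1 and 2 and 4.36 in replicate 3, where the interval of 3.88 to 4.91 lay above both. Pfkl to Slc16a3 was 2.44, 2.29 and 4.13 in the same libraries.

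**Figure D5:**
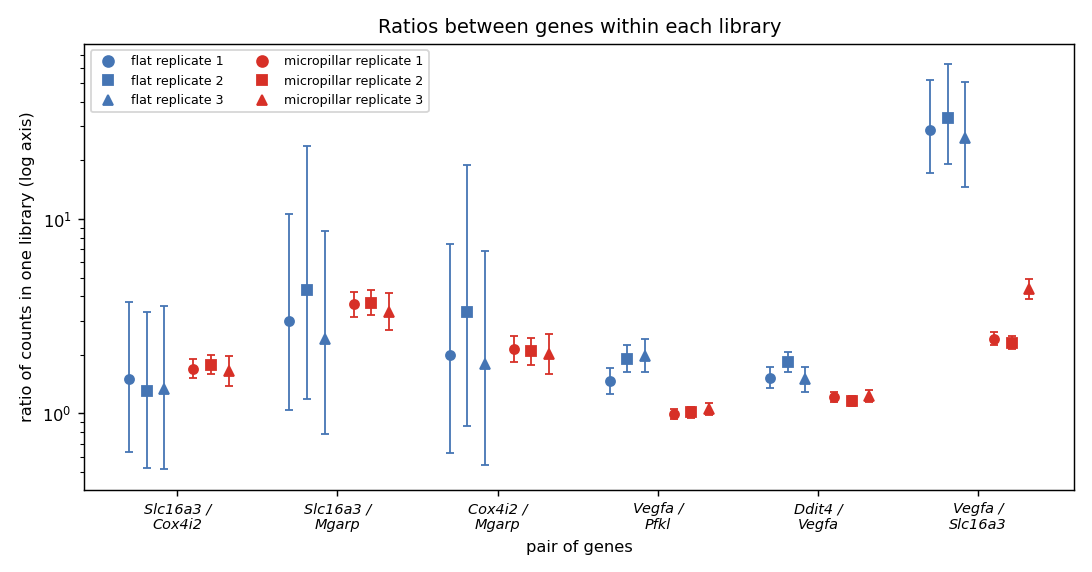
Ratio of the counts of 2 genes within each library on a log axis, for 6 pairs, with 95% exact intervals from the counts, flat in blue and micropillar in red. The 3 pairs among Slc16a3, Cox4i2 and Mgarp have overlapping intervals in all 6 libraries, and Vegfa to Slc16a3 is 26.0 to 33.0 on flat hydrogels, 2.31 and 2.43 in micropillar replicates 2 and 1 and 4.36 in replicate 3.

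The flat libraries did not share an order over the 6 genes. Flat replicate 1 was highest for Vegfa, Pfkl and Slc16a3, flat replicate 2 for Ddit4 and flat replicate 3 for Cox4i2 and Mgarp. The orders were read by overlap of 95% Poisson intervals, which is no test of a difference. For Vegfa, Slc16a3, Cox4i2 and Mgarp the intervals of all 3 flat libraries overlapped. The orders of Slc16a3, Cox4i2 and Mgarp were within counting error. For Vegfa the overlap was narrow, as flat replicate 1 began at 30.4 CPM and replicates 2 and 3 ended at 31.3 CPM. Such an overlap does not settle whether Vegfa differed beyond counting error. Pfkl in flat replicate 1 (22.8 CPM, interval 20.3 to 25.6) lay above replicates 2 and 3, whose intervals overlapped, and was 1.61 times the lowest. Ddit4 in flat replicate 3 (41.9 CPM, interval 38.2 to 45.9) lay below replicates 1 and 2, whose intervals overlapped. Over the 475 genes called higher, flat replicate 1 was the highest flat library for 57.7% and flat replicate 3 for 6.53%, against 32.8% and 32.2% over all genes tested. The myelin genes Mag (myelin-associated glycoprotein) and Mbp were also highest in flat replicate 1, Mag with 2804, 1527 and 1539 CPM in flat replicates 1, 2 and 3. The part of this in the order of Pfkl was not tested. Without flat replicate 1 the log2 fold change of Pfkl was 3.18.

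Leaving out any single library moved the fold changes little. Without micropillar replicate 3 the log2 fold change was 2.30 for Vegfa, 5.91 for Slc16a3, 5.57 for Cox4i2, 5.63 for Mgarp and 1.85 for Ddit4, the highest value that each reached in these fits. The lowest values were 2.04 for Vegfa, 5.32 for Slc16a3, 2.78 for Pfkl, 5.03 for Cox4i2, 4.99 for Mgarp and 1.60 for Ddit4. All 6 were called higher in each of the 6 fits.

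Of a list of 25 glycolysis genes, 3 could be assigned an identifier (Pfkl, Slc16a3 and Pkm), and of 36 low-oxygen response genes, 8 (the 6 genes, Pkm and Tf). With so few members the lists were not read as a whole, and since the study listed these genes for their change in these samples, their calls are not independent evidence of a direction. Both passed an adjusted p of 0.05 in the higher direction, as did 15.3% of the genes tested. Pkm encodes pyruvate kinase, the last enzyme of glycolysis. It stood at 353, 376 and 260 CPM without pillars and 1122, 1138 and 817 CPM with them. Its groups did not overlap, replicate 3 was again the lowest on micropillars, and edgeR gave it a log2 fold change of 1.64 (standard error 0.18) with a Benjamini-Hochberg adjusted p of 0.0011. Its share of the rise, 60.9% ± 1.0, lay beside those of Vegfa, Pfkl and Ddit4. Tf encodes the iron carrier transferrin, which OLs make in quantity and which is also known as a HIF target. Flat libraries had 210, 132 and 130 CPM and micropillar libraries 676, 680 and 407 CPM. Flat replicate 1 and micropillar replicates 1 and 2 stood out as the high libraries of their groups. In edgeR its log2 fold change was 1.90 (standard error 0.24), with an adjusted p of 0.0016, and the share of the rise of 47.9% ± 1.1 lay between those of the sets. Both genes kept an adjusted p under 0.05 in edgeR whichever library was left out (up to 0.0085 for Pkm and 0.012 for Tf). Ldha, Pgk1, Slc2a1, Bnip3, Egln3, Car9 and the other listed genes were not analysed here.

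Across the 6 libraries, each of the 6 genes followed the mean of the other 5 with a Pearson r of 0.991 (Ddit4) to 1.00 (Vegfa) in log2 CPM. The libraries fall into 2 groups, so that r here is mostly the difference between the substrates, and 41 other genes had an r over 0.99 with the mean of the 6. The 5 genes with a symbol and the highest r were Rasgef1c (0.999), Fbln2 (0.995), Vwa1 (0.994), Ugt1a7c (0.993) and Aldh1l2 (0.989). Symbols were at hand for only 77 genes, mostly ones that the study lists. Among all other genes tested these 5 ranked 2, 13, 20, 26 and 48 by r, so genes without a symbol lay between them. Rasgef1c encodes a guanine nucleotide exchange factor, Fbln2 and Vwa1 encode matrix proteins, Ugt1a7c a glucuronosyltransferase and Aldh1l2 a mitochondrial folate enzyme. In micropillar replicate 3, Rasgef1c held 60.2% ± 4.5 of the rise and Vwa1 42.8% ± 4.4, within counting error of Vegfa, Pfkl and Ddit4 and of Mgarp. Fbln2, Ugt1a7c and Aldh1l2 held more, with 75.3% ± 5.5, 80.6% ± 4.5 and 86.9% ± 6.5. The gene with the highest r of all, ENSRNOG00000008283 (r = 0.999), had no symbol at hand.

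The study lists 30 genes by their change in these libraries, and the 6 genes are among them. Of the other 24, 21 were called higher. In 20 of these 21 micropillar replicate 3 was also the lowest micropillar library, as in 78.5% of all genes called higher. The lowest replicate 3 among the 24 was that of Npr1, a natriuretic peptide receptor gene, with 33.0% ± 3.9 of the rise, Wnt4, a Wnt ligand gene, with 33.5% ± 3.4, and Vwa1. Like Slc16a3, Cox4i2 and Mgarp, Npr1 and Vwa1 were low on flat hydrogels, at 0.972 ± 0.566 CPM and 1.78 ± 0.61 CPM (SD, n = 3), and Wnt4 was at 4.64 ± 1.21 CPM. The highest replicate 3 relative to the other micropillar libraries was in Calcb, Scg2 and Gal, which were called lower on micropillars.

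Markers of other cells moved with these results in part. All 8 astrocyte markers could be assigned, and their summed level was 1291, 2106 and 1360 CPM in the flat and 2855, 2824 and 2255 CPM in the micropillar libraries. Gfap, the intermediate filament of astrocytes, made up most of the sum, with 798, 1336 and 779 CPM and 2075, 2042 and 1649 CPM, and no marker of the list was at 0. Of the 8, Gfap, Aqp4 and Aldh1l1 were higher on micropillars and Slc1a2 was lower (edgeR, adjusted p of 0.0091, 0.0061, 0.019 and 0.0092). Over all 13163 genes tested, 15.3% were higher and 1500 genes were lower at an adjusted p under 0.05. In 7 of the 8 markers micropillar replicate 3 was the lowest micropillar library, as it was in 38.3% of the genes tested. With 8 markers these counts were not read as a pattern of astrocytes. The sum in replicate 3 held 53.4% of its rise. On flat hydrogels the sum was highest in replicate 2, which was the highest flat library for Ddit4 but for none of the other 5 genes. Of the 4 neuron markers Tubb3 was higher and Map2 and Eomes were lower, and the sum was 434 to 441 CPM on flat hydrogels and 517 to 553 CPM on micropillars. Of the 3 precursor markers Cspg4 was higher, and of 4 microglia markers the 1 assigned, Cx3cr1, was at 0.408 to 2.32 CPM. Pericytes and endothelial cells, in which Cox4i2 and Vegfa signalling are also studied, had no marker with an identifier among 9 listed. The part of other cell types in the levels of the 6 genes was not tested. In RNA from whole cultures, a change in the number of cells of a type and a change in RNA per cell cannot be told apart.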

How the data were processed

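Poly(A) RNA of 6 libraries was sequenced (paired reads of 150 bases). Per the study's methods and the submitters' processing notes, the authors trimmed reads with Trimmomatic 0.36, mapped them to Rnor6.0 with STAR 2.5.2b and counted unique reads in exons with featureCounts (Subread 1.5.2); whether counting used strand is not given in the sources used here. The authors deposited raw counts per Ensembl gene for each library, and a table of rlog values, DESeq2's shrunken log2 scale, for 13061 genes with more than 60 counts in sum.

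In R 4.3.3, genes of low counts were removed with filterByExpr of edgeR 4.0.16, libraries were scaled by TMM, and the remaining 13163 genes were fitted with glmQLFit and glmQLFTest, with p-values adjusted by Benjamini-Hochberg over all of them. The standard error is the log2 fold change divided by the square root of F. CPM use TMM-scaled library sizes, and log2 CPM a prior count of 2. Intervals are exact Poisson intervals, or exact conditional intervals for ratios of counts, at 95%, and cover counting error only. The fits were tested on simulated data. Totals of 10645621 to 15624525 counts make a gene with 10 counts or fewer in a library imprecise, which touches the flat values of Cox4i2 and Mgarp.

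Symbols were assigned by matching recomputed DESeq2 1.42.0 values to the values that the study's source data list beside symbols (83 entries, 77 genes, each with 1 match), and the RefSeq table holds 0 Ensembl identifiers. The rlog values that the source data list for Mgarp and Ugt1a7c stand under the other of these symbols when compared with the deposited table, and both symbols were assigned by fold change. For 82 entries, these included, the chromosome is the one that RefSeq gives. The spans of Vegfa and Mgarp in the count files are identical in length to RefSeq's (15341 and 8143 bases). Those of Pfkl (22006 against 22061 in RefSeq) and Ddit4 (2094 against 2100) differ slightly. Cox4i2 (11224 against 13413) and Slc16a3 (9773 against 43841) differ more.

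The members, the gene lists and the rule for named genes were chosen with earlier results of these data known. Named genes were the members, listed pathway genes with an identifier and the 5 genes with a symbol most like the members. They also included the 3 lowest and 3 highest in micropillar replicate 3 of the study's 30. Alternatives were DESeq2, other scalings and filters, the replicate number as a block, each library left out and micropillar replicates 1 and 2 summed. The share of the rise under other scalings was added after the data were seen. Promoter sequences are RefSeq's, on GRCr8. A planned comparison of protein sequences was not run.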

Additional observations from a re-analysis of the deposited data

How the results depend on the processing

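The log2 fold changes of the 6 genes, Pkm and Tf kept their direction under every alternative run for them. Library totals gave 2.00 for Vegfa, 2.78 for Pfkl and 1.56 for Ddit4, below their lowest values with single libraries left out. With single libraries left out, Pkm ran from 1.49 to 1.80 and Tf from 1.78 to 2.19. The filter of at least 10 counts in every library removed Cox4i2 and Mgarp, so they have no value there. On the rlog scale the difference of micropillar replicate 3 was smaller for all 6 genes: -0.90 for Slc16a3, -0.79 for Cox4i2, -0.63 for Mgarp, -0.39 for Pfkl, -0.33 for Vegfa and -0.30 for Ddit4. On that scale flat replicate 3 in place of 1 was the highest for Slc16a3.

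The numbers of genes called moved more. Genes lower at an adjusted p under 0.05 (1500) became 2448 with library totals, and genes called lower (415) became 722 when any count was enough for a gene to be tested. With micropillar replicates 1 and 2 summed, 254 genes were called lower, and 996 higher and 465 lower had an adjusted p under 0.05 (2014 and 1500 with all libraries). When single libraries were left out, the genes called higher ran from 302 (without flat replicate 3) to 745 (without flat replicate 1) and those called lower from 221 to 775, and at an adjusted p under 0.05 they ran from 941 to 2632 higher and from 417 to 1990 lower. The causes were not tested.

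No pairing by replicate number was visible: deviations from the group means correlated between same-numbered libraries with r of 0.07, -0.08 and 0.00. The other pairs ran from -0.11 to 0.11. With 3 libraries a group, such r cannot decide whether same-numbered libraries shared an isolation. With the replicate number as a block 528 genes were called higher and 409 lower, the fold changes of the 6 genes were 1.69 to 5.54, and no call of these 6 genes, Pkm or Tf changed. Calls of the other named genes were not read under the block. Counts of 3 to 15 in flat libraries limit the ratios of Slc16a3, Cox4i2 and Mgarp.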
